A study of Homo sapiens with 9 samples.

Results

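One shRNA against KDM1A, named sh72 in the deposited count table, was compared with a scrambled control shRNA (shSCR) in OCI-Ly1 cells, an established human lymphoma line grown from a large-cell B lymphoma with germinal-centre features. The members are all genes that passed a low-count filter, 15725 of the 26816 genes in the table. Each arm was 3 biological triplicate libraries of polyadenylated RNA, 3 of sh72 and 3 of shSCR, out of 9 in the series. Cells of both arms carried a pLKO1 vector and were selected with puromycin, so the control shares the vector and the drug. The remaining 3 libraries carried a second shRNA against KDM1A, named sh68, and entered the fit so that all 9 share an estimate of the spread. The name sh72 is the table's own, since the sample titles number the shRNAs and no label ties a number to a name. All results are from a single line and a single hairpin, and whether the triplicates were separate transductions is not given in the sources used here. P values therefore measure the spread between these cultures.

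KDM1A encodes LSD1, a demethylase of histone H3 that acts on lysine 4. It works in a corepressor complex with CoREST proteins (RCOR1, RCOR2 and RCOR3) and the deacetylases HDAC1 and HDAC2, and is brought to DNA by repressors such as GFI1. In germinal-centre B cells LSD1 is known as a partner of BCL6, the repressor that holds these cells in the germinal-centre state.

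The libraries held 29506767 to 34592653 counted reads. Mitochondrially encoded genes took 5.16 to 5.33% of the counts with shSCR and 4.56 to 4.81% with sh72, and cytosolic ribosomal protein genes 3.36 to 3.55% and 3.14 to 3.36%. The lowest Pearson correlation between libraries of an arm, across genes, was 0.995. B-cell markers were present in both arms: of 27 B-cell identity genes only FCER2 had a mean under 0.1 CPM, and none was at 0 throughout. CPM are read counts scaled to library size and by TMM. A value in brackets with ± is edgeR's log2 fold change of sh72 against shSCR with its SE. A gene is called changed at an adjusted p below 0.05 in edgeR's quasi-likelihood test, adjusted by Benjamini and Hochberg over all genes tested.

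KDM1A RNA was at 121, 119.9 and 123 CPM with shSCR and 19.1, 22.7 and 20.9 CPM with sh72. The sh72 libraries lay far below the controls with no overlap, and 17.2% of the control level was left. The log2 fold change was -2.54 ± 0.056 (edgeR adjusted p = 5.15e-20). A two-sided exact permutation test of 3 against 3 libraries gave p = 0.1, the smallest that this design allows. The gene lies on chromosome 1 at 23019468 to 23083689 (GRCh38.p14).

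With sh72, 8022 genes (51.0% of those tested) were called changed, 3879 higher (24.7%) and 4143 lower (26.3%). Most of these changes were small: 2648 of the higher and 2967 of the lower genes moved less than 1.5-fold. At least 2-fold changes were called higher in 632 genes (4.02%) and lower in 427 (2.72%), and at least 4-fold changes in 167 and 48. The median log2 fold change over all genes was -0.01, with 5th and 95th percentiles of -0.80 and 0.89. When the test asked for a change beyond 1.5-fold, 580 genes were higher and 505 lower. Which direction had more calls depended on the setting: RLE scaling gave 4069 higher and 3910 lower, DESeq2 3740 and 3611, and library size alone 4456 and 3541.

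At least 2-fold changes in both directions were most frequent among genes with few reads, and at 50 CPM or more falls outnumbered rises. Among 1722 genes with a mean under 0.5 CPM over the 6 libraries, 13.4% were called at least 2-fold higher and 6.16% at least 2-fold lower. Among 4829 genes at 50 CPM or more, the shares were 0.0621% (3 genes) and 0.725% (35 genes). Long noncoding RNAs had a median of 0.11, with 147 of 1501 (9.79%) at least 2-fold higher, against 359 of 11705 protein-coding genes (3.07%). For at least 2-fold falls the shares of these classes were 2.66% and 2.67%. The filter keeps a gene that is read in only 1 arm, so the counts among low genes include genes that passed through sh72 alone. At a minimum of 1 CPM in 3 libraries, 352 genes were at least 2-fold higher and 275 lower.

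**Figure D1:**
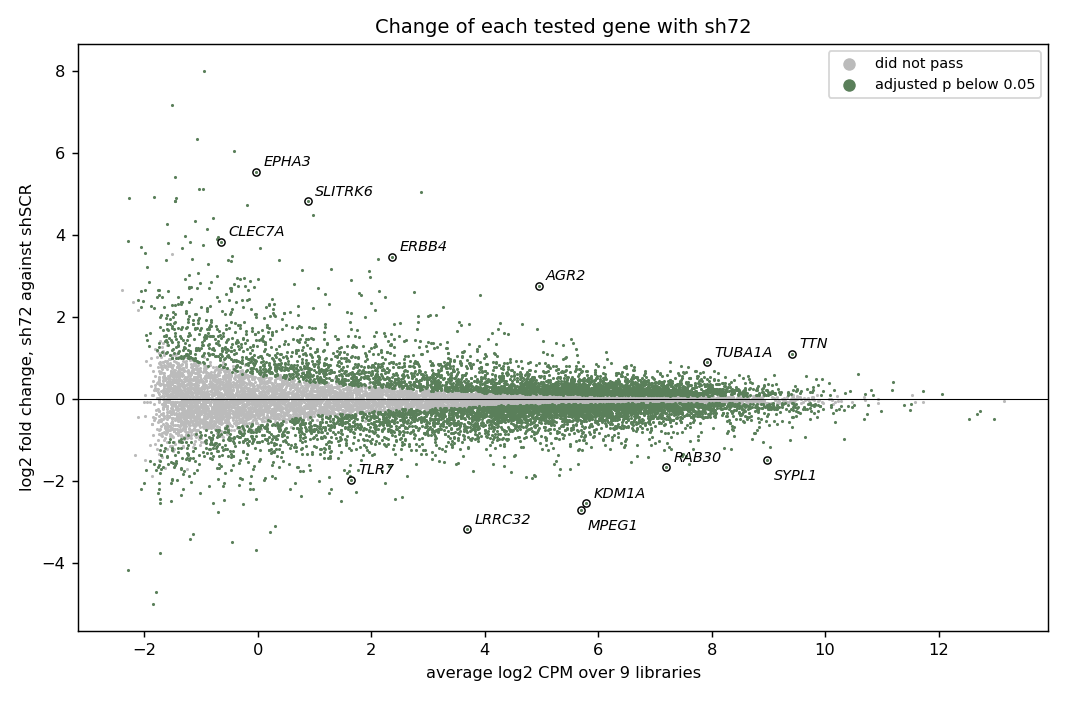
Log2 fold change of sh72 against shSCR (y axis) against the average log2 CPM over 9 libraries (x axis) for 15725 genes, with called genes in green and named genes circled. Points above 2 on the y axis lie mostly at low abundance, while KDM1A, MPEG1, RAB30 and SYPL1 are falls at higher abundance.

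The 12 largest rises among genes with a symbol other than a LOC number, a mean log2 CPM of 1 or more and arms that stood apart included a growth factor receptor, a cadherin, a laminin and a natural killer receptor. ERBB4, a receptor tyrosine kinase that binds neuregulins, had 0.897, 0.623 and 0.351 CPM with shSCR and 7.14, 6.63 and 7.28 CPM with sh72, an 11.1-fold rise (3.48 ± 0.19, edgeR adjusted p = 3.59e-13). The control libraries all lay under 1 CPM and the sh72 libraries between 6.63 and 7.28 CPM. PCDH9, a protocadherin of cell contacts, had 0.495, 0.346 and 0.383 CPM with shSCR and 3.47, 3.03 and 3.31 CPM with sh72 (2.98 ± 0.2). AGR2, a disulfide isomerase of the endoplasmic reticulum known from secretory epithelium, had 10.1, 9.73 and 9.06 CPM with shSCR and 68.1, 59.0 and 70.2 CPM with sh72. Its arms did not overlap (2.77 ± 0.073, edgeR adjusted p = 1.06e-18). SCIMP, an adaptor of antigen-presenting cells, had 0.928, 0.796 and 0.765 CPM with shSCR and 4.87, 4.39 and 5.87 CPM with sh72 (2.59 ± 0.17). LAMB4, a laminin chain of the basement membrane, had 2.10, 1.94 and 1.75 CPM with shSCR and 10.6, 12.3 and 12.5 CPM with sh72 (2.61 ± 0.11). PERP, a p53 effector that also sits in desmosomes, had 0.835, 0.900 and 1.31 CPM with shSCR and 4.99, 6.38 and 6.46 CPM with sh72 (2.54 ± 0.18). In each of these genes every sh72 library was above every control library, which the naming rule required. RNF125, a ubiquitin ligase (2.70 ± 0.21), MYBPC1, a myosin-binding protein of slow muscle (3.14 ± 0.19), DTHD1 (3.17 ± 0.22), TMEM71 (2.57 ± 0.26) and KLRC1, the natural killer receptor NKG2A (2.5 ± 0.15), were also among the 12 rises. The LOC genes left out included the largest rise at this abundance, LOC101060038, named after its values were seen. It had 0.588, 0.623 and 0.638 CPM with shSCR and 22.1, 19.2 and 20.2 CPM with sh72 (5.05 ± 0.14), and LOC284561 (3.43 ± 0.17) came between ERBB4 and DTHD1.

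Of the 15725 tested genes, 62 (47 with a symbol) had a mean under 0.5 CPM in the controls, were called higher and reached at least 1 CPM in every sh72 library. Reads are given here, because a fold against so few is imprecise, and the ratios carry 95% intervals for counting error only. EPHA3, an ephrin receptor, had 1, 1 and 1 reads with shSCR and 62, 44 and 58 with sh72, a ratio of 52.5 (17.6 to 257). SLITRK6, a neuronal membrane protein, had 4, 3 and 7 reads with shSCR and 145, 159 and 121 with sh72, a ratio of 29.1 (17.2 to 53.8). KLHL1, a kelch protein of neurons, had 0, 2 and 1 reads against 37, 45 and 39, a ratio of 38.7 (12.9 to 190.4). None of these control libraries held more than 7 reads of the gene. LAMA3, a laminin chain of epithelial basement membrane, had 5, 1 and 1 reads against 74, 70 and 60, a ratio of 28.0 (13.3 to 70.5). The noncoding RNA OVAAL had 0, 2 and 0 reads against 45, 53 and 65, a ratio of 78.2 (21.3 to 651.5), and LINC01268 had 5, 6 and 8 against 168, 144 and 140, a ratio of 22.8 (14.5 to 38.3). The 62 genes were selected by these levels, which are therefore descriptions. Genes that went the other way, to near silence with sh72, were not counted by such a rule. Among genes with a mean under 0.5 CPM over the 6 libraries, 230 were called at least 2-fold higher and 106 at least 2-fold lower.

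Over all tested genes the lowest log2 fold change was -4.99. The falls named here met the limits set for the 12 rises, a mean log2 CPM of 1 or more among them. They were led by LRRC32, which encodes GARP, the surface protein that tethers latent TGF-beta. It had 36.0, 32.2 and 26.2 CPM with shSCR and 3.03, 3.47 and 4.07 CPM with sh72, a change of -3.16 ± 0.11 (edgeR adjusted p = 1.42e-16). MPEG1, the pore-forming perforin-2 of phagocytes and B cells, had 79.0, 90.4 and 83.9 CPM with shSCR and 12.1, 13.3 and 13.7 CPM with sh72 (-2.70 ± 0.072, edgeR adjusted p = 1.06e-18). Its exons overlap those of DTX4 on the opposite strand, so some reads could belong to either. For both genes the lowest control library was several times the highest sh72 library. CBFA2T3, a corepressor of the ETO family, had 9.59, 9.21 and 8.35 CPM with shSCR and 1.37, 1.90 and 1.8 CPM with sh72 (-2.43 ± 0.13). TLR7, the endosomal sensor of single-stranded RNA, had 4.67, 4.29 and 4.02 CPM with shSCR and 1.14, 1.04 and 1.15 CPM with sh72 (-1.96 ± 0.15). LGALS9, which encodes the secreted lectin galectin-9 and has near-identical copies that could share its reads, had 58.7, 56.3 and 50.2 CPM with shSCR and 14.5, 14.8 and 14.6 CPM with sh72 (-1.91 ± 0.068). All 3 sh72 libraries of each fell below all controls, which the naming rule required. The palmitoyltransferase ZDHHC8 (-2.49 ± 0.22), POM121L1P, a pseudogene with close copies (-2.37 ± 0.13), the zinc finger gene ZNF467 (-2.27 ± 0.19), the growth factor midkine MDK (-2.18 ± 0.17), IGFBP2, which binds insulin-like growth factors (-2.03 ± 0.2), and TMEM163 (-1.98 ± 0.18) make up the rest of the 12 largest falls with KDM1A, LOC genes again left out.

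**Figure D2:**
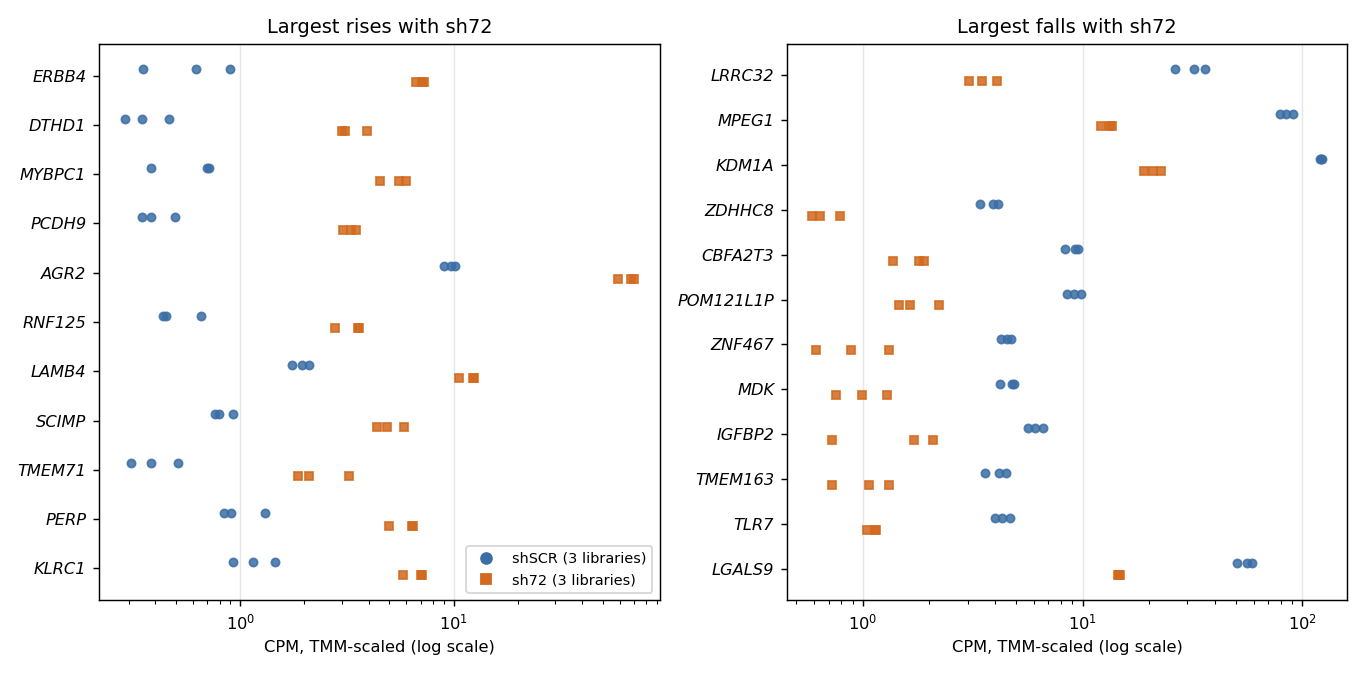
CPM of 11 of the 12 largest rises (left) and the 12 largest falls (right) with sh72. Genes had a mean log2 CPM of 1 or more, and LOC genes were left out. Each point is 1 library on a log axis, blue circles for shSCR and orange squares for sh72. The arms do not overlap for any gene shown, which the naming rule required, and AGR2 is the most abundant of the rises shown.

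Among genes with a mean log2 CPM of 6 or more, falls were larger than rises. SYPL1, a vesicle membrane protein related to synaptophysin, had 618, 660.0 and 650.4 CPM with shSCR and 226, 234 and 235 CPM with sh72 (-1.47 ± 0.039, edgeR adjusted p = 1.06e-18). RAB30, a small GTPase of the Golgi, had 198, 207 and 203 CPM with shSCR and 59.7, 65.6 and 68 CPM with sh72 (-1.66 ± 0.045). GNB4, a beta subunit of G proteins, had 221, 221 and 210.2 CPM with shSCR and 72.1, 72.9 and 74.4 CPM with sh72 (-1.57 ± 0.042). Between 31.7 and 36.0% of the control level was left in these genes, and replicate libraries lay close together. GLUD1, the mitochondrial glutamate dehydrogenase, fell to 34.6% of control (-1.53 ± 0.042), with the reservation that its copy GLUD2 can share reads. SFXN1, which carries serine into mitochondria, fell to 38.5% (-1.38 ± 0.039), and VPREB3, a pre-B-cell chaperone, to 37.5% (-1.42 ± 0.055). The largest rises at this abundance were USP53 (1.16 ± 0.05), the muscle protein titin TTN (1.11 ± 0.053, exons shared with TTN-AS1), GPRIN3 (0.99 ± 0.044), TP53INP1, a p53-induced stress gene (0.92 ± 0.047), the alpha-tubulin TUBA1A (0.91 ± 0.039) and the integrin ITGB7 (0.90 ± 0.046, exons shared with ZNF740). TUBA1A had 188, 190.4 and 194 CPM with shSCR and 365, 347 and 359.8 CPM with sh72. Its near-identical tubulin paralogs make the assignment of reads uncertain.

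Most genes induced by interferon were lower with sh72. Of 55 tested interferon-stimulated effectors, 46 fell, 6 rose and 3 did not pass, with a median of -0.62 beside -0.01 over all genes and 26.3% of all genes called lower. With a test beyond 1.5-fold, 21 were lower and 0 higher. Interferons bind receptors whose JAK kinases activate STAT proteins, which join IRF9, and that complex binds the interferon-stimulated response element in the promoters of the effectors. The element, searched on both strands as GAAA, any 2 bases and GAAA again, was in 27 of 42 effector promoters held by RefSeq (64.3%) and in 331 of 10691 promoters of tested genes (3.10%), each window running from 250 bases before to 50 after the start. Of these 27, 22 genes were called lower and 4 higher, beside 46 and 6 of all 55 effectors. Calls among all promoters with the element were not counted. A match is a description of the letters. The 4 promoters below, from RefSeq on GRCh38.p14, show the element in 3 genes that fell and in GBP1, which rose, with matches in capitals. Where matches overlap, as in ISG15, the capitals run together.
IFI6: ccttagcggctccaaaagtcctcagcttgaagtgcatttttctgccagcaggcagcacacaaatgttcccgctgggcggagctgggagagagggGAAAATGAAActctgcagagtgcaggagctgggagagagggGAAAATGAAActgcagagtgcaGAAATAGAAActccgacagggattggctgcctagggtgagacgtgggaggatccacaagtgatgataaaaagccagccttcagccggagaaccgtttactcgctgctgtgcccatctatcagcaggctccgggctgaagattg
ISG15: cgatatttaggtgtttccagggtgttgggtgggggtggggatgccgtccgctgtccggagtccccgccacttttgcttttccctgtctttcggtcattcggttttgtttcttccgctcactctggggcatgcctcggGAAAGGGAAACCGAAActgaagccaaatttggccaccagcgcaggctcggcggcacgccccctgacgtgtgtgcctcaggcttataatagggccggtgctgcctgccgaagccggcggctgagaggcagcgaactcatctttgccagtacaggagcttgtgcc
IFIT3: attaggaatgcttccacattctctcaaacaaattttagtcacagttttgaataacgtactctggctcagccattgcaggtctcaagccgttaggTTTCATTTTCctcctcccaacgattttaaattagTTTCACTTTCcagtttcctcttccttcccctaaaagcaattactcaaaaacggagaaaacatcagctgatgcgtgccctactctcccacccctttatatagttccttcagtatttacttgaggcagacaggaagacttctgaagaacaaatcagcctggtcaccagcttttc
GBP1: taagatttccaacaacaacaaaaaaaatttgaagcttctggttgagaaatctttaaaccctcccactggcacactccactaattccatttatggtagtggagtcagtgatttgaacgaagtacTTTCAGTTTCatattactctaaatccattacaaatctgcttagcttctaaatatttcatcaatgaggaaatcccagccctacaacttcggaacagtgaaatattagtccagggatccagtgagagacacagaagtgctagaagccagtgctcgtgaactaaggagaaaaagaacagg

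The windows are IFI6 at chr1:27672143-27672442, minus strand, ISG15 at chr1:1013247-1013546, plus strand, IFIT3 at chr10:89327747-89328046, plus strand and GBP1 at chr1:89065159-89065458, minus strand. IFI6, an antiviral protein of the endoplasmic reticulum with 3 matches, had 110.5, 89.2 and 91.0 CPM with shSCR and 45.9, 39.5 and 37.1 CPM with sh72 (-1.25 ± 0.075). ISG15, a ubiquitin-like modifier with 2 matches, had 348, 289.6 and 260.4 CPM with shSCR and 157, 125 and 108 CPM with sh72 (-1.20 ± 0.091). IFIT3, which binds viral RNA with its partners and also has 2 matches, had 18.7, 16.6 and 16.6 CPM with shSCR and 9.24, 6.89 and 7.61 CPM with sh72 (-1.13 ± 0.097). All 3 sh72 libraries lay below all controls in these genes. GBP1, a guanylate-binding GTPase with 1 match, went the other way and had 3.77, 3.60 and 3.09 CPM with shSCR and 5.92, 6.57 and 5.90 CPM with sh72 (0.81 ± 0.13). Other large falls were IFIT2 (-1.34 ± 0.1), XAF1 (-1.24 ± 0.054), SAMD9L (-1.23 ± 0.052) and USP18, which removes ISG15 from proteins (-1.23 ± 0.11). Other rises were LGALS3BP (0.78 ± 0.11), GBP2 (0.71 ± 0.23), OAS3 (0.17 ± 0.048) and TRIM14 (0.14 ± 0.046).

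Among 14 interferon receptors and signalling genes 10 fell, 0 rose and 4 did not pass (IFNAR1, JAK2, TYK2 and PTPN1), with a median of -0.27, beside 26.3% of all genes called lower and 24.7% higher. The falls include genes that restrain the pathway, PTPN6, SOCS1 (-0.58 ± 0.094) and PTPN2 (-0.34 ± 0.051). PTPN6, the phosphatase SHP-1 that restrains receptor signals, had 75.3, 76.5 and 72.2 CPM with shSCR and 21.4, 20.8 and 20.5 CPM with sh72 (-1.83 ± 0.053). IRF9, the DNA-binding part of the STAT complex, had 82.4, 82.8 and 80.2 CPM with shSCR and 51.6, 51.8 and 48.2 CPM with sh72 (-0.69 ± 0.048). The arms did not overlap in either gene. For STAT2 (-0.21 ± 0.056) 2 control libraries were at 113.9 and 113.8 CPM and the other one at 99.3, below the highest sh72 library at 99.6. Of 9 interferon regulatory factors 6 fell and 1, IRF5 (0.40 ± 0.075), rose. IRF7 (-0.96 ± 0.22), IRF8 (-0.46 ± 0.048) and IRF1 (-0.44 ± 0.083) were the largest falls. Of 15 sensors of RNA and DNA, 5 rose and 6 fell: beside TLR7, the RNA helicases DHX58 (-0.84 ± 0.064) and DDX58 (-0.53 ± 0.056) fell, and MB21D1, the DNA sensor cGAS (0.86 ± 0.095), TICAM1 (0.62 ± 0.06) and AIM2 (0.56 ± 0.074) rose.

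Most genes of B-cell identity were lower with sh72. Of 27 tested, 21 fell, 4 rose and 2 did not pass, with a median of -0.59, beside 26.3% of all genes called lower and a median of -0.01. CD79A, a signalling chain of the B-cell receptor, had 676, 689.7 and 621 CPM with shSCR and 325, 290.0 and 270.0 CPM with sh72 (-1.17 ± 0.052, edgeR adjusted p = 6.94e-15). PAX5, the transcription factor that keeps B cells committed, had 557, 576 and 533 CPM with shSCR and 284, 267 and 259 CPM with sh72 (-1.04 ± 0.04). Control libraries were about 2-fold above sh72 libraries in both genes, with no overlap. BACH2, a repressor active in germinal centres (-0.97 ± 0.036), CD72, an inhibitory coreceptor (-0.98 ± 0.046), and CD79B (-0.93 ± 0.04) fell as well. The summed level of the list was 11035 to 11381 CPM with shSCR and 7832 to 8197 with sh72. In bulk RNA, fewer cells with a program and less RNA per cell cannot be told apart. SPIB (0.50 ± 0.044), FCRL1 (0.44 ± 0.047) and BANK1 (0.25 ± 0.036) rose, as did CR2, which stayed under 1 CPM (1.54 ± 0.47) and did not pass without sh72 replicate 3 (1.24). With a test beyond 1.5-fold, 9 members were lower and 0 higher.

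The octamer ATTTGCAT, the site of the B-cell factors OCT2 and OCA-B, was searched on both strands because of this list. It was in 1 of 20 B-cell identity promoters held by RefSeq (5.0%), that of VPREB3, and in 148 of 10691 promoters of tested genes (1.38%). The VPREB3 window (chr22:23754376-23754675, minus strand, GRCh38.p14) is shown since this gene had the largest called fall of the list, with the octamer in capitals.
VPREB3: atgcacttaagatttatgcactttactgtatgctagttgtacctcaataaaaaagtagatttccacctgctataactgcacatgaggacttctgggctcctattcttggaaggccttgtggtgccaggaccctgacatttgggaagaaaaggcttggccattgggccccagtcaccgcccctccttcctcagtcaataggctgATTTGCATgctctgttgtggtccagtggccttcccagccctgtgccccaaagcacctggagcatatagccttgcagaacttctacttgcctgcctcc

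VPREB3 had 190.0, 194 and 174 CPM with shSCR and 66.0, 76.2 and 66.9 CPM with sh72 (-1.42 ± 0.055, edgeR adjusted p = 7.75e-16). Its arms did not overlap, which the rule that named it among abundant genes required.

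Signalling from the B-cell receptor had 18 of 34 members lower and 6 higher (median -0.18), beside 26.3% of all genes lower and 24.7% higher. PRKCB, a protein kinase C that links the receptor to NF-kB, had 60.4, 63.3 and 62.4 CPM with shSCR and 24.2, 28.7 and 29.1 CPM with sh72 (-1.18 ± 0.062), and PTPN6 and CD79A above belong to this list too. Rises were small, such as the kinase LYN (0.23 ± 0.037). Germinal-centre genes moved both ways, 11 higher (35.5%) and 14 lower (45.2%) of 31 (median -0.07). LMO2, a marker of germinal-centre lymphoma, had 2.13, 2.74 and 1.75 CPM with shSCR and 0.554, 0.600 and 0.590 CPM with sh72 (-1.91 ± 0.23), while BCL7A (-1.01 ± 0.036) and SERPINA9 (-1.01 ± 0.12) also fell. The transcription factor MEF2C (0.64 ± 0.037) and the ubiquitin ligase adaptor ASB13 (1.4 ± 0.23) rose. BCL6 itself had 656, 661 and 635 CPM with shSCR and 630.3, 584 and 610.3 CPM with sh72 (-0.10 ± 0.037, edgeR adjusted p = 0.034). That call was lost under 11 alternatives other than the 1.5-fold test, among them RLE scaling and leaving out shSCR replicate 1 (-0.08) or 2 (-0.07) or sh72 replicate 2 (-0.05) or 3 (-0.08).

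Genes that BCL6 represses had 7 members higher (20.6%) and 14 lower (41.2%) of 34 (median -0.07), beside 24.7% and 26.3% of all genes. CD69, an early activation marker, had 0.340, 0.485 and 0.383 CPM with shSCR and 1.49, 1.99 and 1.71 CPM with sh72 (2.10 ± 0.25), and the costimulatory ligand CD80 had 2.10, 2.49 and 2.33 CPM with shSCR and 6.18, 5.56 and 6.92 CPM with sh72 (1.43 ± 0.13, exons shared with TIMMDC1). Both rose with no overlap between arms, and GPR183, a receptor that positions B cells, rose as well (0.69 ± 0.044). The cytokine IL10 (-2.04 ± 0.32) and CCR7, the receptor that draws lymphocytes to T-cell zones, fell. CCR7 had 22.0, 20.5 and 18.7 CPM with shSCR and 4.84, 7.08 and 8.79 CPM with sh72 (-1.57 ± 0.12). PRDM1, the regulator of plasma cell fate, was under 1 CPM in every shSCR and sh72 library and did not pass (0.42 ± 0.38), nor did IRF4 (0.26 ± 0.43). Of 20 plasma cell and secretion genes 8 rose and 4 fell (median 0.14): XBP1 (0.61 ± 0.051), JCHAIN, which joins secreted antibodies (0.62 ± 0.044), MZB1 (0.64 ± 0.042) and the elongation factor ELL2 (1.35 ± 0.13) rose, and SDC1, the plasma cell marker CD138, fell (-0.81 ± 0.22). JCHAIN had 1081, 1150.0 and 1092 CPM with shSCR and 1823, 1602 and 1667 CPM with sh72, so the rise was among abundant transcripts. Of BCL6 corepressor genes 10 of 17 fell and 1, NCOR1 (0.26 ± 0.036), rose, with BCOR at -0.46 ± 0.053 and RNF2 at -0.51 ± 0.073. The number higher was 3 under RLE scaling or library size, and 4 without shSCR replicate 1 or sh72 replicate 3.

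Surface receptors were mixed, beside 24.7% of all genes called higher and 26.3% lower, and several genes stand in more than 1 list. In migration and adhesion 10 of 22 rose and 7 fell (median 0.15), in memory and activated B cells 12 of 29 rose and 9 fell, and in cytokine receptors and JAK-STAT 8 of 22 rose and 9 fell. Beside ITGB7, the adhesion molecules ICAM2 (1.10 ± 0.066, exons shared with PRR29) and ICAM1 (0.77 ± 0.078) rose, while the chemokine receptor CCR6 (-1.17 ± 0.23) and the leukocyte integrin ITGB2 (-0.88 ± 0.059) fell. The transducer STAT5A had 1.67, 1.87 and 1.63 CPM with shSCR and 3.85, 3.89 and 3.67 CPM with sh72 (1.15 ± 0.13), and IL7R rose (0.81 ± 0.066). Of 24 genes of the TGF-beta pathway 4 rose and 10 fell: beside LRRC32, the inhibitors of DNA binding went opposite ways, ID2 down (-0.80 ± 0.049) and ID3 up (0.64 ± 0.07). Among 25 genes of NF-kB and CD40, 7 rose and 9 fell, with CD83 (-0.96 ± 0.049) and CD40 (-0.46 ± 0.048) lower. The early response phosphatases DUSP5 (-0.74 ± 0.12) and DUSP1 (-0.62 ± 0.16) fell in a list of 18 where 7 fell and 2 rose.

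**Figure D3:**
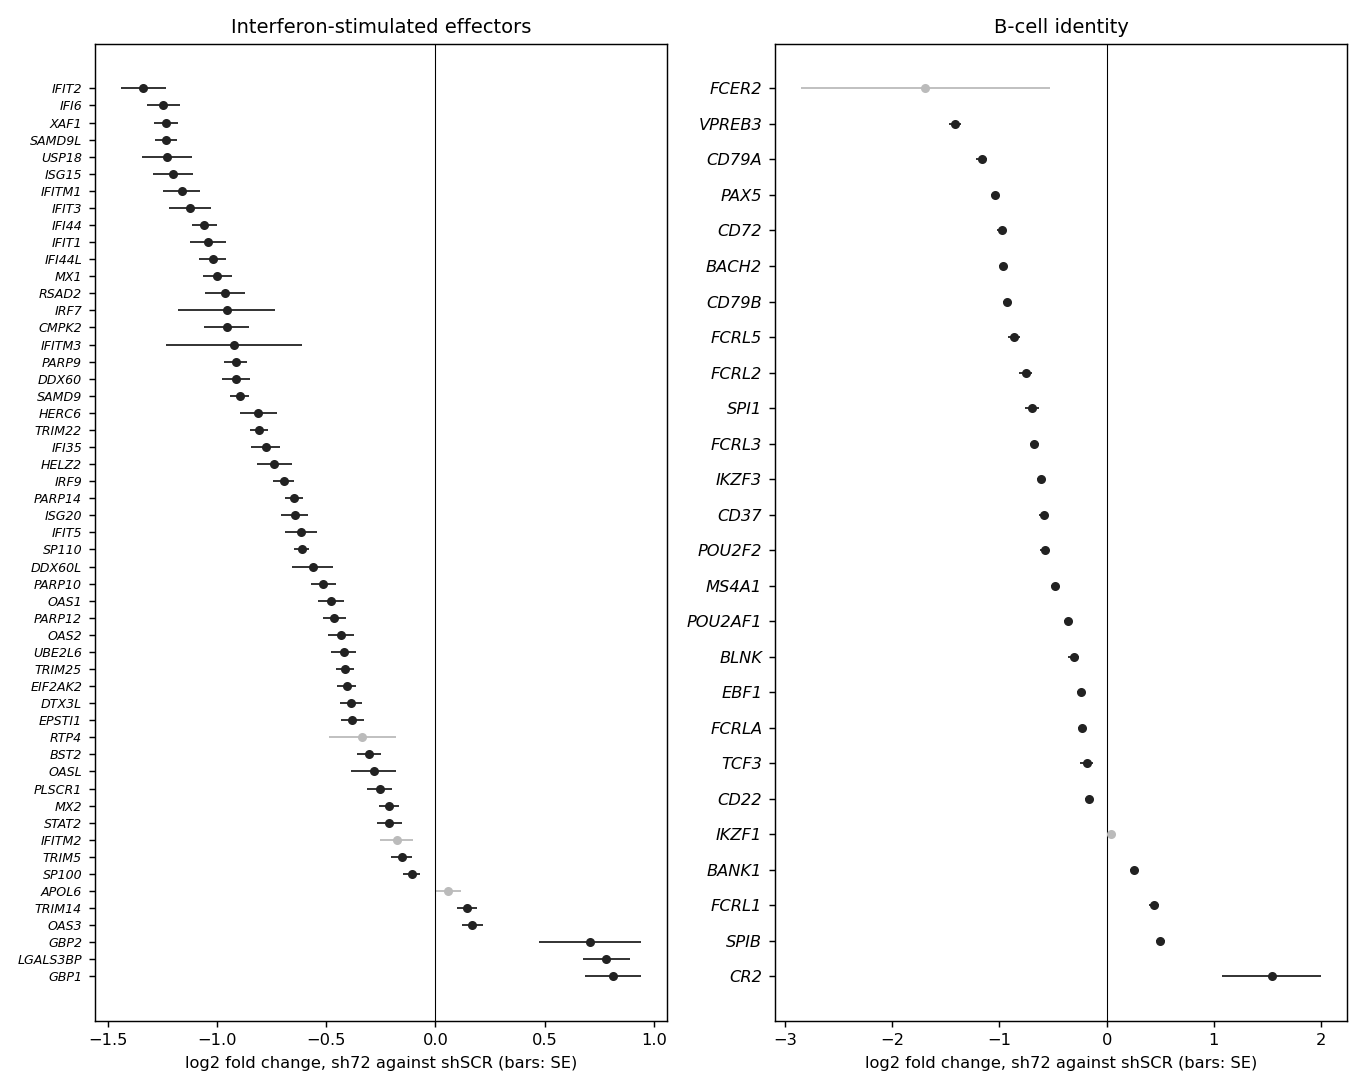
Log2 fold change of sh72 against shSCR with its SE for 53 of the 55 interferon-stimulated effectors (left) and 26 of the 27 B-cell identity genes (right), black where called and grey where not. Most points lie left of 0, and GBP1, LGALS3BP, GBP2 and CR2 lie farthest to the right.

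The partners of LSD1 changed less than KDM1A. Of 16 members of the LSD1 and CoREST complex 8 fell, KDM1A among them, and 4 rose, beside 26.3% and 24.7% of all genes. RCOR1, the scaffold CoREST, had 61.7, 62.3 and 67.3 CPM with shSCR and 85.5, 82.2 and 83.4 CPM with sh72 (0.39 ± 0.044), above control in every library. ZNF217 (0.52 ± 0.039) and HDAC2 (0.20 ± 0.035) rose, and CTBP2 (-1.11 ± 0.19, exons shared with ZRANB1), ZMYM2 (-0.36 ± 0.048), PHF21A (-0.29 ± 0.041) and RCOR3 (-0.26 ± 0.049) fell. HDAC1 (0.05 ± 0.039), KDM1B, the paralog of KDM1A (-0.09 ± 0.044), and GFI1 (0.11 ± 0.05) did not pass. GFI1 passed in 7 alternatives, among them RLE scaling (0.12) and leaving out sh72 replicate 3 (0.14). Of 10 repressors that recruit LSD1, 4 fell and 2 rose, with CBFA2T3 the largest fall and ZEB1 the largest rise (0.80 ± 0.071). Only 2 fell without shSCR replicate 2 or without sh72 replicate 2. Among 49 enzymes of histone and DNA modification 24 fell and 6 rose (median -0.10). The demethylases KDM7A (-0.92 ± 0.061) and KDM5B (-0.82 ± 0.084) fell and the methylcytosine oxidase TET1 rose (0.97 ± 0.16). Neuronal targets of REST and CoREST had 3 of 13 higher and 6 lower, TUBB3 (-0.78 ± 0.09) and RUNDC3A (-1.17 ± 0.19) among the falls, and INA (1.94 ± 0.55) and GRIN1 (1.64 ± 0.41), both under 1 CPM, among the rises.

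Amino acid supply and protein folding had more rises than falls. Of 27 genes of ATF4 and amino acid supply 16 rose, 3 fell and 8 did not pass (median 0.20), beside 24.7% of all genes called higher. With a test beyond 1.5-fold 3 were higher and 0 lower. The 3 falls (SHMT2, SLC7A5 and TRIB3) became 1 with library size as the scaling, with offsets for GC content and length, and without shSCR replicate 1 or 2 or sh72 replicate 2 or 3. The amino acid response element, searched as TGATGNAA on both strands, was in 4 of 19 promoters of this list held by RefSeq (21.1%), ASNS, SLC3A2, SLC7A1 and CHAC1, and in 198 of 10691 promoters of tested genes (1.85%). Of these 4, 3 were called higher and 0 lower, beside 16 and 3 of all 27 genes of the list. The window of CHAC1 (chr15:40953221-40953520, plus strand, GRCh38.p14) is shown because CHAC1 had the largest change of the 4, with the match in capitals.
CHAC1: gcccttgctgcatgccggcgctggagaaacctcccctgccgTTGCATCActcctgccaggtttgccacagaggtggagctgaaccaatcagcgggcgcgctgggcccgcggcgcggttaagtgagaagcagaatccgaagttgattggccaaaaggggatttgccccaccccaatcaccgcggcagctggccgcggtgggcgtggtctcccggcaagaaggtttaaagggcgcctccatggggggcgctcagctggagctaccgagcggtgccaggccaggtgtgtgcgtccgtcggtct

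CHAC1, which degrades glutathione, had 3.53, 4.29 and 3.35 CPM with shSCR and 10.0, 7.30 and 6.76 CPM with sh72 (1.12 ± 0.14). SLC7A11, the cystine importer, had 10.6, 10.9 and 10.8 CPM with shSCR and 30.0, 24.6 and 24.8 CPM with sh72 (1.30 ± 0.084). Its exons overlap SLC7A11-AS1 on the opposite strand. Both arms were apart in each gene. ALDH1L2, a mitochondrial enzyme of folate metabolism (1.89 ± 0.3), and CTH, which makes cysteine (0.74 ± 0.069), rose too, and ATF4 itself did not pass (0.07 ± 0.043). In the unfolded protein response 15 of 29 rose (51.7%) and 6 fell (20.7%), beside 24.7% and 26.3% of all genes (median 0.14), with the chaperone CALR (0.36 ± 0.055) and PDIA6 (0.35 ± 0.039) higher and SEL1L, part of the degradation of misfolded proteins, lower (-0.58 ± 0.041). Of 15 heat shock genes 9 rose (60.0%, beside the same 24.7%) and 2 fell, led by HSPB1 (0.89 ± 0.076), the cochaperone BAG3 (0.70 ± 0.15) and DNAJB1 (0.53 ± 0.045).

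Sterol synthesis, respiration and ribosomes had small list medians, with larger changes in single genes. Here too, 24.7% of all genes were called higher and 26.3% lower. Of 32 genes of cholesterol and fatty acid synthesis 17 fell and 7 rose (median -0.13). MSMO1, which removes methyl groups from sterol intermediates, had 252, 278 and 266 CPM with shSCR and 99.7, 108 and 109 CPM with sh72 (-1.33 ± 0.045), and INSIG2 (-0.92 ± 0.071) and TM7SF2 (-0.74 ± 0.047, exons shared with VPS51) fell. Nuclear genes of oxidative phosphorylation rose in 15 and fell in 3 of 36 (median 0.07), with NDUFA9 (0.35 ± 0.048) the largest change. Among 13 mitochondrially encoded genes 4 rose and 6 fell, COX1 (-0.47 ± 0.036) and COX2 (-0.48 ± 0.043) down and ND1 (0.43 ± 0.044) up, beside the lower mitochondrial share of counts given above. Of 48 cytosolic ribosomal proteins 23 fell and 3 rose (median -0.11). RPS3 was the largest, with 1555, 1622 and 1518 CPM with shSCR and 807, 813 and 771 CPM with sh72 (-0.97 ± 0.041), and pseudogene copies make such reads uncertain. The 23 falls became 15 without shSCR replicate 1, 12 without shSCR replicate 2 and 12 without sh72 replicate 3. Glycolysis and hypoxia split into 12 rises and 10 falls of 37, with DDIT4, an inhibitor of mTORC1, lower (-0.92 ± 0.079), VEGFA lower (-0.68 ± 0.083) and PFKM higher (0.61 ± 0.04).

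In the cell cycle, replication genes had 13 of 38 higher and 6 lower (median 0.06) and mitotic genes 5 of 36 higher and 15 lower (median -0.07). As shares these are 34.2% and 15.8% for replication and 13.9% and 41.7% for mitosis, beside 24.7% and 26.3% of all genes. Replication had more rises and fewer falls than all genes and mitosis the reverse, by amounts that were not tested. GINS3, part of the replicative helicase, rose (0.88 ± 0.059), and cyclin E, CCNE1, fell (-0.57 ± 0.049). KIF14, a kinesin of cell division, had 73.8, 69.2 and 78.4 CPM with shSCR and 37.1, 36.5 and 45.7 CPM with sh72 (-0.90 ± 0.066), and NEK2 (-0.83 ± 0.065) and ANLN (-0.73 ± 0.044, exons shared with KIAA0895) fell too. Mitotic falls numbered 9 without sh72 replicate 2, and rises 3 without sh72 replicate 1. Of 28 p53 targets 7 rose and 10 fell. TP53INP1 and PMAIP1 (0.65 ± 0.041), which promotes cell death, rose, and CDKN1A, the inhibitor p21, had 179, 175 and 158 CPM with shSCR and 137, 138 and 132 CPM with sh72 (-0.33 ± 0.045), lower in every sh72 library. The death receptor gene TNFRSF10B fell (-0.83 ± 0.05, exons shared with RHOBTB2). MYC did not pass (-0.06 ± 0.041), though it did without sh72 replicate 1 (-0.11). In the BCL2 family 5 of 17 rose and 4 fell, the death-promoting HRK (-0.59 ± 0.049) and BCL2L11 (-0.47 ± 0.037) and the protective MCL1 (-0.34 ± 0.036) among the falls.

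**Figure D4:**
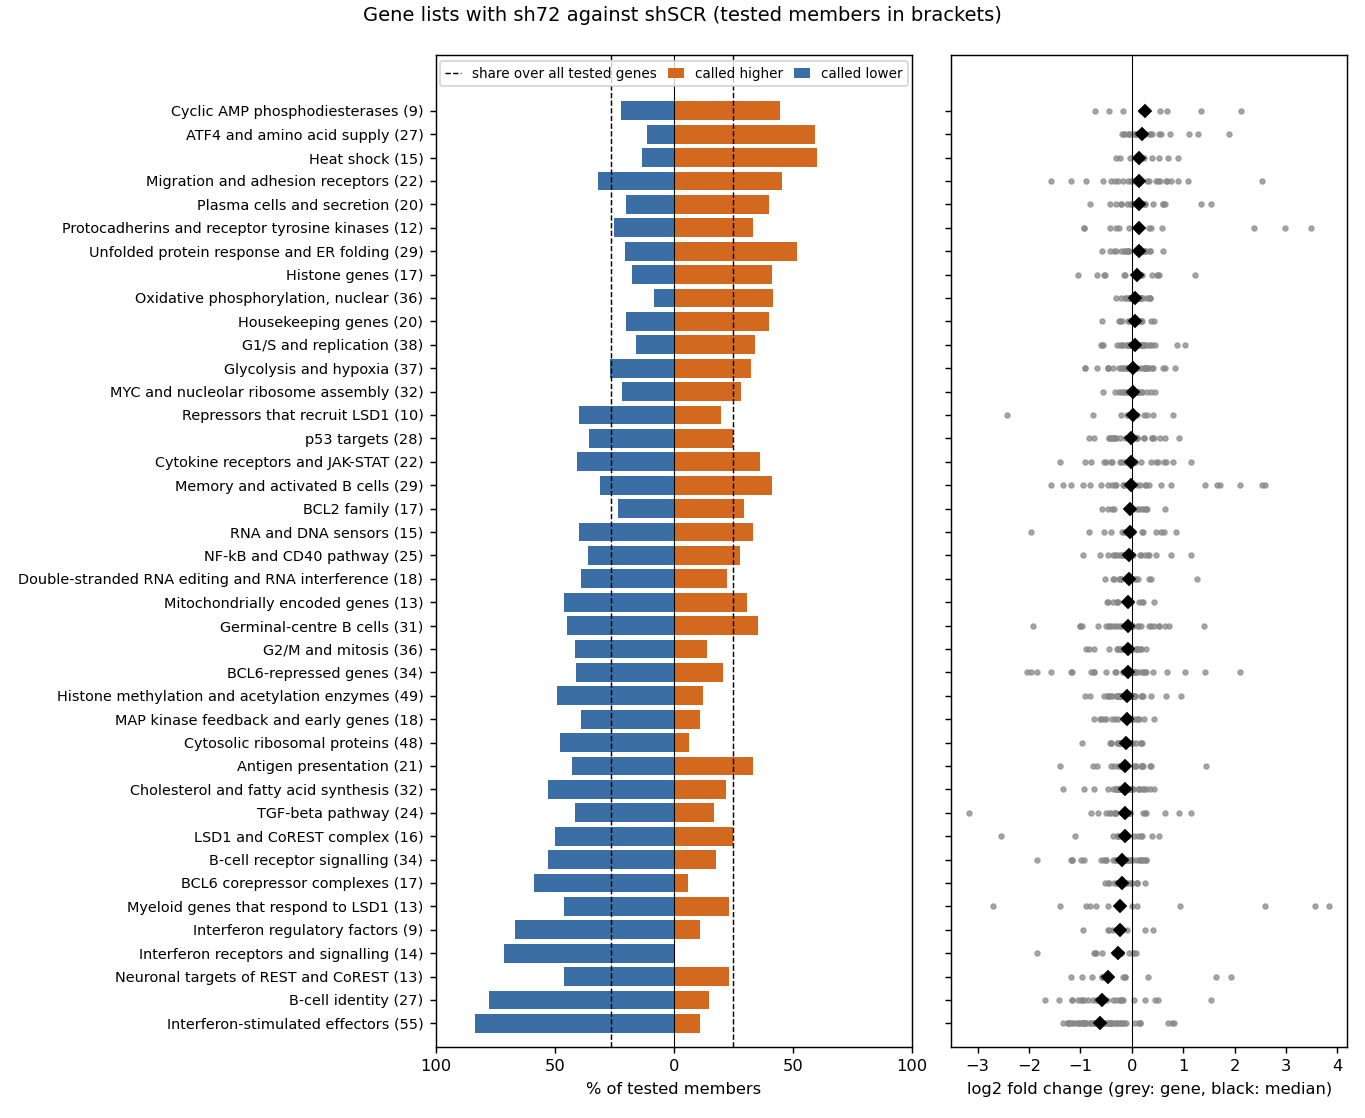
Share of tested members called higher (orange, right) and lower (blue, left) with sh72 for each list of at least 9 tested genes, dashed lines marking the shares over all tested genes (24.7% and 26.3%), and the log2 fold change of each member (grey) with the list median (black). Interferon-stimulated effectors and B-cell identity have the lowest medians, -0.62 and -0.59, and cyclic AMP phosphodiesterases the highest, 0.26.

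Antigen presentation split into 7 rises and 9 falls of 21. CIITA, the regulator of class II genes (-0.67 ± 0.067, exons shared with DEXI), and HLA-DOB (-1.39 ± 0.29) were lower. The class II gene HLA-DQB1 had the largest rise (1.45), which did not pass a test beyond 1.5-fold, and CALR above was higher. Among 18 genes of double-stranded RNA editing and RNA interference 4 rose and 7 fell, the editing enzymes going apart, ADARB1 up (1.27 ± 0.11) and ADAR down (-0.34 ± 0.037), with DICER1 down (-0.53 ± 0.046). Of 32 genes of MYC and nucleolar ribosome assembly 9 rose (28.1%) and 7 fell (21.9%), near the shares of all genes (24.7% and 26.3%), of 17 histone genes, whose copies can share reads, 7 and 3, and of 20 housekeeping genes 8 and 4. Of 12 protocadherins and receptor tyrosine kinases, ERBB4 and PCDH9 among them, 4 rose and 3 fell.

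Small lists held single large changes, beside 24.7% of all genes called higher and 26.3% lower. Of 9 cyclic AMP phosphodiesterases 4 rose and 2 fell. PDE4A, which degrades cyclic AMP, had 0.649, 0.519 and 0.733 CPM with shSCR and 2.71, 3.0 and 2.66 CPM with sh72 (2.12 ± 0.21), and PDE4B (0.68 ± 0.053) and PDE3B (1.35 ± 0.32) rose. Of 13 myeloid genes known to respond to LSD1, 3 rose and 6 fell. CLEC7A, the glucan receptor dectin-1, had 0.124, 0 and 0.128 CPM with shSCR and 0.816, 1.64 and 1.44 CPM with sh72 (3.84 ± 0.48). MPEG1, described above, had the largest fall of the list (-2.70 ± 0.072), and the myeloid and B-cell factor SPI1 (-0.69 ± 0.062) fell as well.

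Marker lists of other cell types summed to at most 14.0 CPM per library, except the monocyte and macrophage and the epithelial lists. Of 7 natural killer markers in the table the summed level was 5.13 to 6.06 CPM with shSCR and 12.4 to 14.0 with sh72, all 3 tested members rose (KLRC1, KLRD1 and PRF1), and KLRF1 and GNLY were at 0. The 6 monocyte and macrophage markers summed to 79.3 to 90.8 and 12.6 to 14.3 CPM, nearly all of it MPEG1, with FCGR3A at 0. Of T-cell markers 1 of 3 tested rose (CD3D, 2.40 ± 0.7, which did not pass a test beyond 1.5-fold, adjusted p = 0.0634 in edgeR), and they summed to 0.415 to 1.04 and 1.22 to 1.67 CPM with CD8B at 0, and erythroid markers to at most 0.442 CPM. Fibroblast markers summed to 0.433 to 0.510 and 1.25 to 3.38 CPM, most of it COL1A1, and the 5 epithelial markers to 15.2 to 18.1 and 15.6 to 16.2 CPM. The part of any other cell in the rises of KLRC1 and KLRD1 was not tested.

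KLRC1, KLRD1, CD69 and CLEC7A lie together on chromosome 12, and this neighbourhood was chosen after the values were seen. From 9752486 to 10752486 (GRCh38.p14), 9 of 16 tested genes were called at least 2-fold higher, beside 4.02% of all tested genes. That share was 13.4% for genes with a mean under 0.5 CPM and 9.24% at 0.5 to 2 CPM. The 9 were CD69, CLEC2B, CLEC7A, KLRD1, KLRC4-KLRK1, KLRC3, KLRC2, KLRC1 and LOC105376675, most of them C-type lectin receptors of natural killer and myeloid cells. CD69, CLEC2B, CLEC7A, KLRD1 and LOC105376675 were under 0.5 CPM in every control library. Some of these may have been tested only because they were high in an shRNA arm. KLRC3 had 13.9, 13.8 and 14.2 CPM with shSCR and 34.0, 37.3 and 37.9 CPM with sh72 (1.38 ± 0.061), KLRC2 5.41, 5.96 and 6.35 CPM with shSCR and 17.9, 18.8 and 17.5 CPM with sh72 (1.61 ± 0.075) and KLRD1, the CD94 partner of the KLRC receptors, 0.216, 0.242 and 0.223 CPM with shSCR and 1.17, 1.45 and 1.08 CPM with sh72 (2.42 ± 0.3). The arms did not overlap in these 3 genes. KLRC genes are close paralogs, and KLRC1 and KLRC2 as well as KLRC4 and KLRC4-KLRK1 share exons, so their reads cannot be assigned with certainty and they may not be separate rises. In the same stretch GABARAPL1, an autophagy gene, rose less (0.42 ± 0.041), MAGOHB did not pass (-0.00 ± 0.051) and KLRA1P fell (-0.45 ± 0.12).

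A second such stretch lay on chromosome 6, from 26365169 to 27365169, where 5 of 12 tested genes were called at least 2-fold higher. The shares were 4.02% of all tested genes, 13.4% of those with a mean under 0.5 CPM and 9.24% at 0.5 to 2 CPM. The 5 genes were the butyrophilins BTN3A2 (1.01 ± 0.24), BTN3A3 (1.58 ± 0.24), BTN2A1 (1.05 ± 0.35) and BTN1A1 (2.12 ± 0.31), which belong to a family that engages T cells, and the noncoding RNA HCG11. HCG11 had 7.08, 6.54 and 6.82 CPM with shSCR and 17.5, 16.5 and 18.4 CPM with sh72 (1.35 ± 0.077). All butyrophilins were under 3 CPM, and the BTN3A paralogs share sequence. In all, 15 overlapping windows of 1 Mb held at least 4 genes called 2-fold higher and 4 windows at least 4 called 2-fold lower. These are descriptions with no test.

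**Figure D5:**
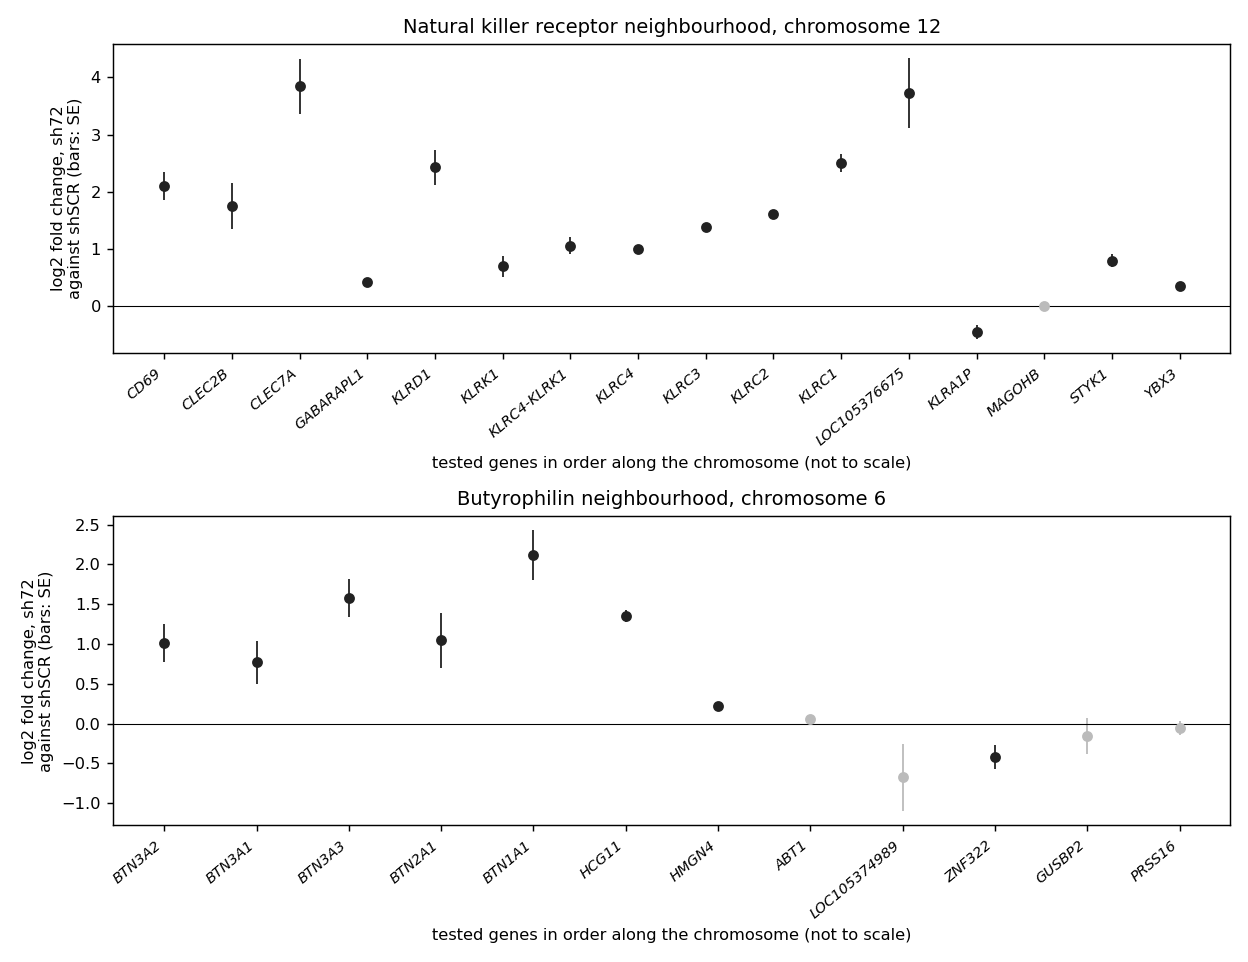
Log2 fold change with its SE for the tested genes of the chromosome 12 (top) and chromosome 6 (bottom) stretches, in order along the chromosome, black where called and grey where not. Along chromosome 12 the rises reach 3.84 at CLEC7A while KLRA1P is below 0, and along chromosome 6 they stop after HMGN4.

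The direct test of sh72 minus sh68 called 8841 genes (56.2%) different between the shRNAs. KDM1A was lower with sh72 by -0.23 ± 0.061 (edgeR adjusted p = 0.00261), at 20.9 ± 1.82 CPM against 24.4 ± 1.26 (SD, n = 3 libraries each). Of the 55 interferon-stimulated effectors 50 were called different, 48 of them higher with sh72 than with sh68, with a median difference of 0.82. The share of all genes in each direction was not counted. IFI44L, for which sh68 had 3.36 ± 0.916 CPM, had 186, 164 and 179 CPM with shSCR and 88.9, 82.4 and 90.1 CPM with sh72, so it fell by 1.02 on the log2 scale against shSCR and lay 4.69 ± 0.093 above sh68. IFIT1 (3.22 ± 0.13), IFI44 (2.87 ± 0.07) and DDX60 (2.68 ± 0.082) were likewise above sh68. OASL differed by 3.29 ± 0.16, and its own fall against shSCR (-0.28 ± 0.1) was lost under DESeq2, library size scaling and without shSCR replicate 1 (-0.23) or 2 (-0.22) or sh72 replicate 1 (-0.25) or 3 (-0.25).

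For B-cell identity genes the order was the reverse. Of 27, 26 were called different, beside 56.2% of all genes in either direction. Of these, 24 were lower with sh72 than with sh68, a direction for which the share of all genes was not counted. The median difference of the list was -0.53. PAX5 was lower by -1.17 ± 0.04 and VPREB3 by -0.50 ± 0.056. The abundant falls SYPL1 (-1.45 ± 0.039), GNB4 (-1.99 ± 0.042), GLUD1 (-1.66 ± 0.042), RAB30 (-1.44 ± 0.045) and SFXN1 (-1.15 ± 0.039) were lower than with sh68, as were MPEG1 (-2.16 ± 0.073), TLR7 (-1.77 ± 0.15) and CBFA2T3 (-1.67 ± 0.14). AGR2 (1.92 ± 0.066) and TUBA1A (0.99 ± 0.039) were higher. TMEM2, a hyaluronidase of the cell surface, was lower by the naming rule (-3.62 ± 0.083), as were COL19A1 (-4.72 ± 0.24) and RHBDL3 (-3.71 ± 0.23). RAG1, the recombinase of antigen receptor genes, followed (-3.58 ± 0.093). Their falls against shSCR were smaller, TMEM2 -1.58 ± 0.094, COL19A1 -1.79 ± 0.36, RHBDL3 -1.44 ± 0.31 and RAG1 -0.61 ± 0.12. Mean CPM was 83.2 with sh68 and 20.3 with shSCR for TMEM2, and 7.23 and 0.950 for COL19A1. It was 5.34 and 1.10 for RHBDL3, and 33.7 and 4.29 for RAG1. Each sh72 minus sh68 difference of these genes was called. The genes were picked for their size here or against shSCR, so the values are descriptions. For ERBB4 (-0.09 ± 0.12), DTHD1 (-0.02 ± 0.14), MYBPC1 (0.01 ± 0.12), KLRC1 (0.12 ± 0.11), LGALS9 (-0.14 ± 0.075) and TMEM163 (-0.19 ± 0.22) no difference between the shRNAs was called, which does not show that they act alike.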

How the data were processed

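The authors deposited raw read counts per gene; per the submitters' processing notes CASAVA 1.8.2, STAR 2.5.2, featureCounts 1.5.2 and hg38 were used, while the annotation, strand setting and parameters were not named there. Columns were assigned to arms by the shRNA name in their headers. All 9 libraries were fitted together in edgeR 4.0.16 (R 4.3.3) with TMM scaling, the default low-count filter and a term per arm, and the quasi-likelihood test was adjusted by Benjamini and Hochberg over 15725 genes. The biological coefficient of variation was 0.0394. DESeq2 1.42.0, limma 3.58.1, other scalings and filters, and leaving out libraries were alternatives. Named genes were the 12 highest and 12 lowest called genes whose mean log2 CPM was 1 or more and whose arms stood apart (LOC symbols left out), the 6 highest and 6 lowest at 6 or more, set genes of the LSD1 and BCL6 pathways, near-silent genes, the largest sh72 minus sh68 differences and list members with large values. The genes, lists and motifs were chosen with earlier results of these data known. List membership is from general knowledge. Same-numbered shSCR and sh72 libraries deviated together in 2 of 3 pairs (correlations in the closing section), short of the bar of 0.1 in every pair. Intervals and floors cover counting error only. Some genes that the naming rule picks are not reported here. Named outside that rule, after their values were seen, were ADAR, ASNS, ATF4, BANK1, CD40, CD79B, FCRL1, GBP1, GBP2, GPR183, IFIT3, ISG15, ITGB2, LGALS3BP, LYN, MEF2C, NCOR1, OAS3, SHMT2, SLC3A2, SLC7A1, SLC7A5, SPIB, TRIB3, TRIM14, LOC101060038, LOC284561, the markers given as at 0 or under 0.1 CPM and the genes of the chromosome 12 and chromosome 6 stretches.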

Additional observations from a re-analysis of the deposited data

How the results depend on the processing

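KDM1A kept its direction in every alternative, and no named gene that was called reversed its sign. The balance of calls did not hold. Lower calls outnumbered higher ones in the reported fit, with limma-voom, the robust fit, the replicate block and without sh72 replicate 1 (47.2% higher). Higher calls outnumbered lower ones in all other alternatives run, where they made up 50.2 to 55.7% of the calls. A test beyond 1.5-fold called 1085 genes with sh72, 580 higher and 505 lower, and 1395 genes for sh72 minus sh68. At 1 CPM in 3 libraries, 352 genes were at least 2-fold higher and 275 at least 2-fold lower. Called genes numbered 7979 under RLE scaling, 7351 with DESeq2, 7974 with limma-voom, 7710 with only the libraries compared and 7381 with offsets for GC content and length, which were added after the data were seen. Library size alone called 7997, with 4456 higher and 3541 lower, 55.7% higher against 48.4%. Leaving out each library in turn gave 7261 to 7689 called genes, 3631 to 4013 higher and 3545 to 4058 lower, 615 to 687 at least 2-fold higher and 393 to 472 at least 2-fold lower, 8092 to 8551 for sh72 minus sh68, and -2.58 to -2.47 for KDM1A.

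The replicate block called 8436 genes, 4082 higher and 4354 lower, and kept 7998 of the 8022. Same-numbered shSCR and sh72 libraries correlated at -0.0427 to 0.283 in their deviations from the arm means, 0.174 and 0.283 in 2 pairs and below 0 in the other, so the numbers were not taken as a pairing.

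Depth limits genes under 0.5 CPM, where a few reads set the ratio. Strand was not stated, so overlapping genes on opposite strands could not be separated.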
